A study of Homo sapiens with 9 samples.

Results

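Messenger RNA levels of 44 genes of the proton pump, the lysosome and autophagy were examined in HaCaT, an immortalized keratinocyte line of human skin. The genes were picked by symbol. They comprise 10 subunits of the V1 sector and 6 of the V0 sector of the vacuolar ATPase, 2 accessory proteins of that pump, 6 proteins of the lysosomal membrane, 8 cathepsins, 3 glycosidases, 3 lipid-handling or saposin-type proteins, 2 transcription factors and 4 autophagy genes. All 44 symbols were found among the 61311 genes of the count table, and all 44 were among the 15154 genes that passed the filter on low counts and were tested.

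The vacuolar ATPase is a rotary pump of the endosomal and lysosomal membrane. Its V1 sector hydrolyses ATP on the cytosolic side, and its V0 sector carries protons into the lumen. The acid lumen serves the hydrolases of the lysosome, which are made in the endoplasmic reticulum and sorted from the Golgi apparatus, while autophagy delivers cytoplasm in double-membraned vesicles that fuse with lysosomes. TFEB and TFE3 are transcription factors that bind a palindromic box in the promoters of many lysosomal and pump genes and are held in the cytosol when the kinase complex mTORC1 is active at the lysosomal surface. In keratinocytes, lysosomes and autophagy are known for organelle turnover and for work during cornification.

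RNA sequencing was performed on 3 groups with 3 libraries each. CT-treated UVA-irradiated cells, called UVA and CT, received UVA at 5 J/cm² and then an extract of Coreopsis tinctoria (CT) flowers. UVA-irradiated cells, called UVA, received the same UVA dose without the extract, and control cells went through the same medium changes with neither UVA nor CT. The extract's dose for the sequenced cells is stated in the study's results and not in the sample labels. The time from irradiation to harvest is not given in the sources used here, and no group with CT but without UVA was analysed here. All 3 groups are a single cell line. Whether the 3 libraries of a group stem from separate cultures is not stated, so a p-value here reflects the spread among these libraries alone, which may be technical.

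Values are given as CPM, counts scaled to libraries of a common size after TMM, edgeR's correction for library composition. Differences are log2 fold changes with their 95% interval in parentheses, and each adjusted p is that of edgeR's quasi-likelihood F test after Benjamini-Hochberg adjustment over all 15154 tested genes, with 0.05 as the threshold. The words rose and fell are kept for genes past it, and the value after either word is the signed log2 fold change, negative for a lower level. A set of 17 alternative analyses kept this threshold, and the study's own thresholds, an unadjusted p under 0.05 with a fold change over 2, were applied apart from them. Under those, with edgeR's p, only ATP6V1B1 of the 44 genes passed, as lower in each comparison with control. Library totals were 20129928 to 21971215 counts in UVA and CT, 16390289 to 19527286 in UVA and 17053246 to 19324311 in control, and the 44 genes took 0.483 to 0.581% of them. The keratinocyte identity of the cells was visible in KRT5, KRT14, TP63 and the rest of a list of 14 keratinocyte markers, all of which were tested and which summed to 93149 to 136225 counts per library. Of 12 macrophage and leukocyte markers, 0 passed the filter, the list summed to 8 to 36 counts per library, and MRC1 and AIF1 had 0 counts in all 9 libraries.

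After UVA irradiation, 11 of the 44 genes fell and 2 rose against control. The 11 were the pump genes ATP6V1A, ATP6V1E1 and ATP6AP1, the membrane proteins LAMP1 and LAMP2, the cathepsins CTSB, CTSD and CTSH, the hexosaminidase gene HEXA, the progranulin gene GRN and the transcription factor TFEB, and the 2 were CD68 and ATP6V0A2. Over all tested genes 10.6% fell and 10.5% rose, against 25% and 4.55% of the 44. The median log2 fold change of the 44 genes was -0.08, and that of all tested genes was 0.00. In bulk RNA, fewer transcripts per cell and a changed mixture of cells cannot be told apart. Keratinocyte markers moved with the same groups: 10 of the 14 fell and 1 rose after UVA, with summed levels of 5670 to 6145 CPM in UVA and 6745 to 7739 CPM in control, and the part of this in the lysosomal results was not tested. Fibroblast markers were lower as well, with summed levels of 19.2 to 22.8 CPM in UVA and CT, 18.9 to 21.7 CPM in UVA and 30.04 to 32.3 CPM in control. Of 10 such markers 4 were tested, of which 2 fell after UVA and 2 fell and 1 rose in UVA and CT against control, and PDGFRA had 0 counts in every library. The part of this list was likewise not tested. The count of 11 varied when single libraries were left out, being 5 without UVA replicate 2, 5 without control replicate 2 and 7 without control replicate 3. With fewer libraries the test passes fewer true differences, so a call lost in this way, here or below, need not have rested on that library. HEXA was lost without control replicate 2 at an estimate of -0.15, against -0.14 with all libraries.

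In UVA and CT against control, 13 of the 44 genes fell and 5 rose, while 14.2% of all tested genes fell and 15.7% rose. The 13 were ATP6V1A, ATP6V1B1, ATP6V0D1, LAMP1, LAMP2, CTSA, CTSB, CTSD, CTSH, HEXA, GRN, TFEB and WIPI1, and the 5 were ATP6V0A2, CD68, CTSL, GLA and NPC2. The median log2 fold change of the 44 genes was -0.07 here. Both comparisons use the same 3 control libraries, so the 9 genes that fell and the 2 genes that rose in both are not independent repeats. Of the keratinocyte markers, 7 fell and 2 rose in UVA and CT, whose summed marker level was 5827 to 5970 CPM.

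Between UVA and CT and UVA, 1 of the 44 genes rose, GLA, and 0 fell by edgeR's test. Over all tested genes 0.944% rose and 0.614% fell. At an unadjusted p under 0.05 the 44 genes held 4 higher and 0 lower, against 1122 higher and 878 lower of all 15154 tested genes. DESeq2 called 1 of the 44 higher and 0 lower, and limma-voom called 0 in either direction. The median log2 fold change was 0.01, and for 35 of the 44 genes the whole 95% interval of the difference lay within 0.3 of 0. In the remaining 9 genes larger differences were not excluded by these 3 libraries per group. The bound of 0.3 was chosen for description and is larger than most of the falls called after UVA. An interval within it can still hold most of a reversal of such a fall. ATP6AP1 fell by -0.18 after UVA, and its interval between UVA and CT and UVA was -0.05 to 0.16.

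**Figure D1:**
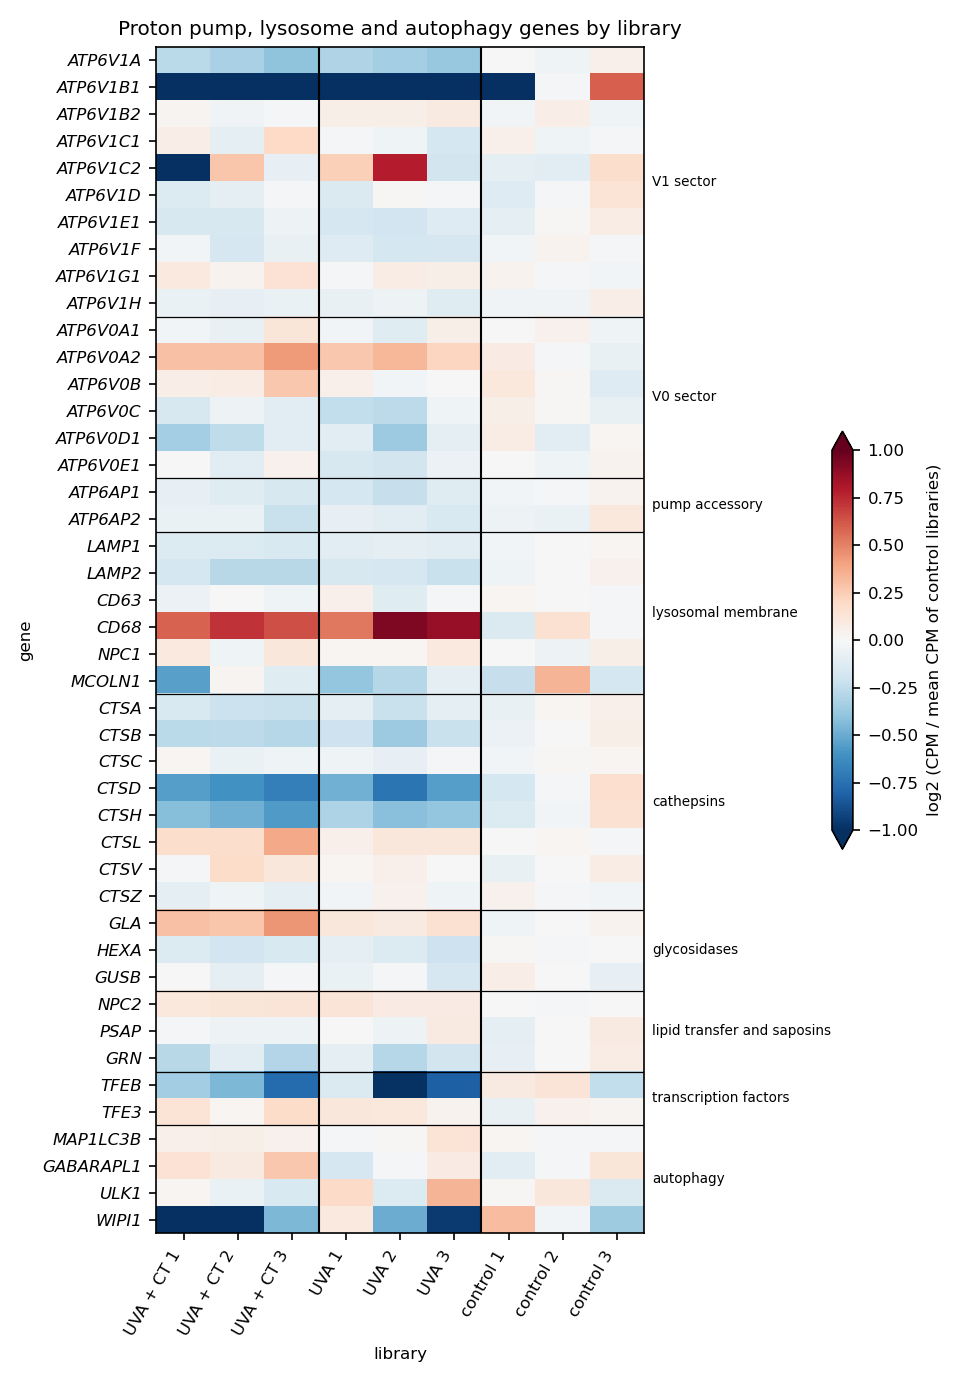
Level of each of the 44 genes (vertical axis, ordered by role) in each library (horizontal axis) as log2 of CPM over the mean CPM of the 3 control libraries, with the colour scale ending at -1 and 1. CTSD, CTSH, ATP6V1A and LAMP2 were below the control mean in all 6 irradiated libraries and CD68 and ATP6V0A2 above it, while ATP6V1B1 also varied among the control libraries.

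**Figure D2:**
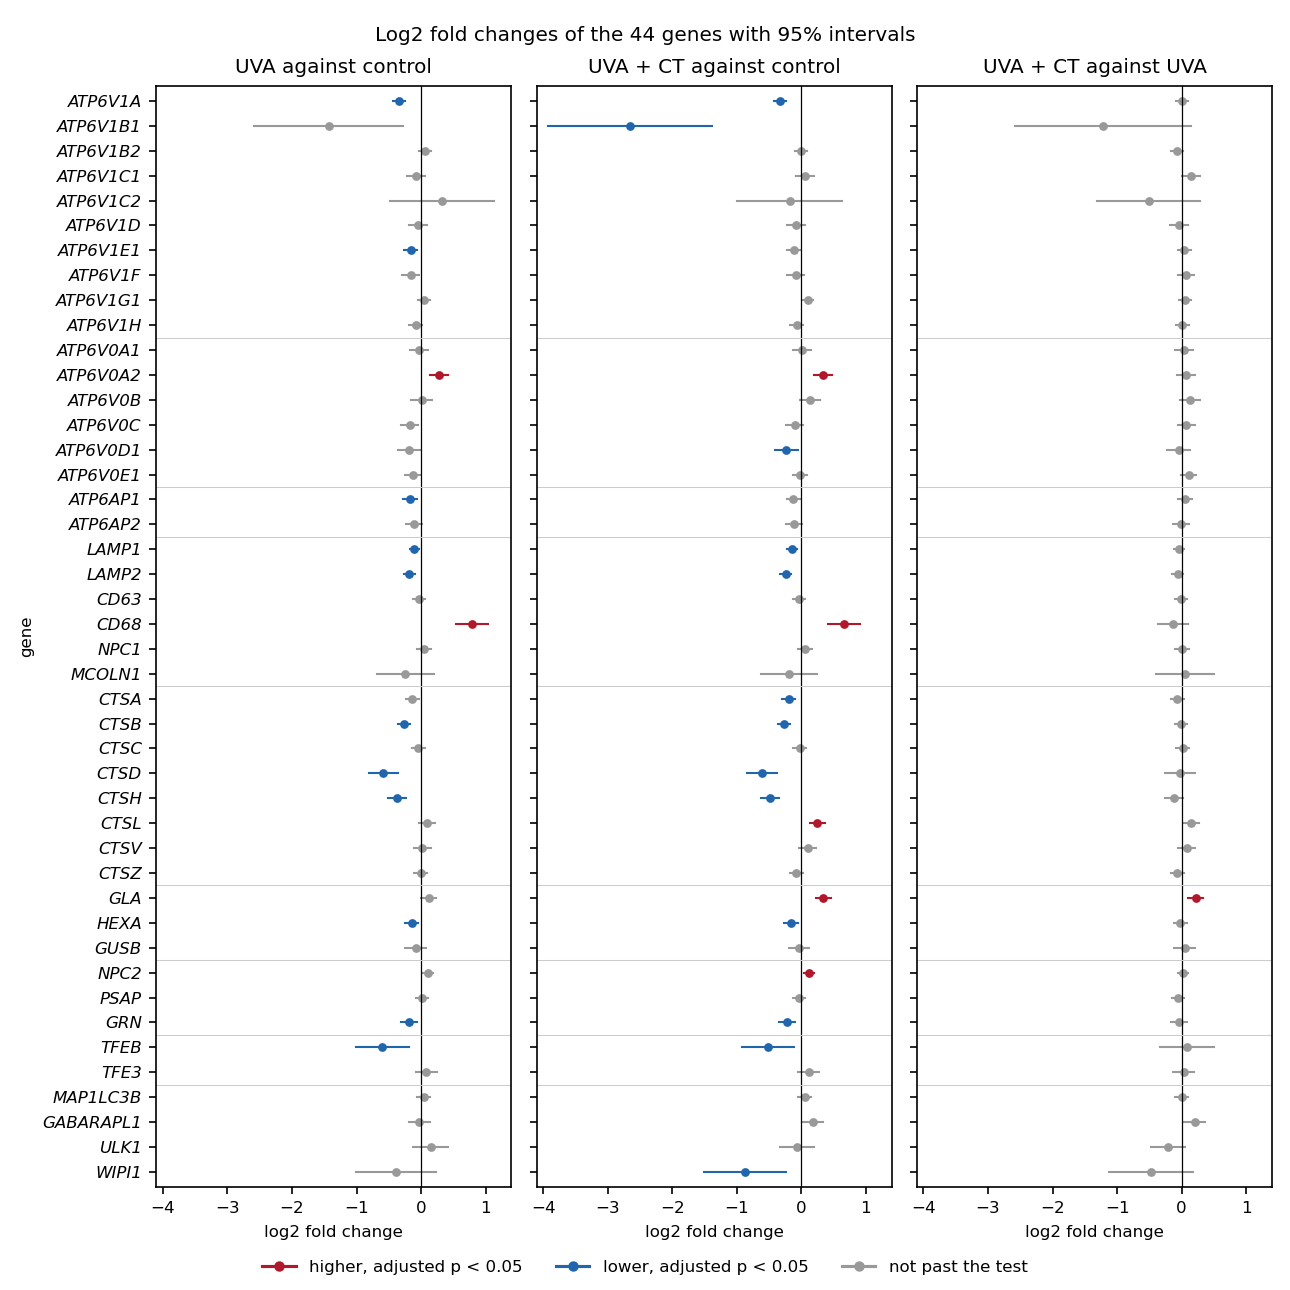
Log2 fold change (horizontal axis) of each of the 44 genes (vertical axis) in the 3 comparisons, with points for the estimate and bars for the 95% interval, coloured where the adjusted p was under 0.05. In UVA against control 11 genes are coloured as lower and 2 as higher, in UVA and CT against control 13 and 5, and in UVA and CT against UVA only GLA is coloured.

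TFEB was among the genes that fell, but the activity of TFEB and TFE3 was not measured. Promoter windows from 250 bases before to 50 bases after each annotated start were searched for the box that TFEB and TFE3 bind, TCACGTGA. The E-box CACGTG, which lies within it, the AP-1 site TGANTCA and the core of the antioxidant response element, TGACNNNGC, were searched as well. Both strands were read, N is any base, and the sequences are those of RefSeq on GRCh38.p14. Windows were at hand for 35 of the 44 genes, some with several starts, and a gene was counted when any of its windows held the letters. TCACGTGA was in 5 of the 35 (14.3%), against 10.9% of 138 other listed genes of the lysosome, the pump and autophagy and 1.18% of all 27305 genes with a RefSeq window. That last set was not limited to genes of the count table or to tested genes. CACGTG was in 8 (22.9%), against 21.7% of the other listed genes and 8.77% of all. TGANTCA was in 3 (8.57%), against 9.42% and 9.37%. TGACNNNGC was in 16 (45.7%), against 18.8% and 16.1%, and its letters shared bases with CACGTG in 1 of these genes. Base composition was not matched in these shares, and a match of letters is a description, not a site in use.

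The 5 genes with TCACGTGA are shown because they span the pump, the membrane and the enzymes, 5′ to 3′ on the gene's strand with the match in capitals. The match begins at position -59 in ATP6V1G1 (chr9:114587700-114587727, plus strand), -60 in ATP6V0D1 (chr16:67481200-67481227, minus strand), -29 in LAMP1 (chr13:113297200-113297227, plus strand), -42 in MCOLN1 (chr19:7522572-7522599, plus strand) and -26 in CTSA (chr20:45891299-45891326, plus strand), with the annotated start as position 0. LAMP1 and MCOLN1 each held 2 matches, of which the one farther from the start is shown. TGACNNNGC was also present in the windows of ATP6V1G1, ATP6V0D1, LAMP1 and CTSA.
ATP6V1G1: cgctgtgcggTCACGTGAcaacgggggc
ATP6V0D1: ccccttatggTCACGTGAggcgcttgcg
LAMP1: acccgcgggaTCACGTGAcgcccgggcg
MCOLN1: ccagaggcggTCACGTGAggggctctgg
CTSA: gcgccggagtTCACGTGActcgtacaca
The calls of these 5 genes differed. LAMP1 fell in both comparisons with control, CTSA and ATP6V0D1 fell in UVA and CT alone, and ATP6V1G1 and MCOLN1 passed in no comparison. After UVA the log2 fold changes were -0.10 (-0.18 to -0.03) for LAMP1, -0.13 (-0.24 to -0.03) for CTSA and -0.18 (-0.36 to -0.01) for ATP6V0D1. Those of MCOLN1 and ATP6V1G1 were -0.25 (-0.69 to 0.20) and 0.04 (-0.05 to 0.13). These intervals overlap, and whether the genes differ from each other was not tested. In UVA and CT against control LAMP1 differed by -0.14 (-0.22 to -0.07) and ATP6V1G1 by 0.10 (0.00 to 0.19).

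For 4 genes whose levels are described further on, other matches are shown. CTSD held CACGTG at position -47 (chr11:1763959-1763984, minus strand) and, not shown, 2 matches of TGACNNNGC. GLA held TGACNNNGC at position 17 (chrX:101407890-101407918, minus strand), which is after the annotated start and so in transcribed sequence. CTSL held TGACNNNGC on the opposite strand at position -23 (chr9:87726086-87726114, plus strand), so its capitals read as the reverse complement. CD68 held TGANTCA at position -100 (chr17:7579528-7579554, plus strand) and, not shown, 1 match of TGACNNNGC.
CTSD: cggccgcgccCACGTGaccggtccgg
GLA: ccggtcaccgTGACAATGCagctgaggaa
CTSL: ggttttagaaGCAGAGTCAggcgaagctg
CD68: ctgaggccccTGAGTCAggctgtgggt
In the windows of ATP6V1B1, ATP6V0A2, CTSH, GRN, TFEB and WIPI1 none of the 4 patterns was found, which says only that these letters are not in these windows.

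Among the V1 subunits, ATP6V1A (chr3:113747019-113812056 on GRCh38), the catalytic A subunit, had 190.4, 183 and 174 CPM in UVA and CT, 186, 181 and 176 CPM in UVA and 228, 222 and 237 CPM in control. All 6 irradiated libraries were below the lowest control library, and the irradiated groups overlapped each other. ATP6V1A fell after UVA by a log2 fold change of -0.34 (-0.43 to -0.25, adjusted p = 2.47e-05) and in UVA and CT against control by -0.33 (-0.42 to -0.24, adjusted p = 1.65e-05), and both calls held under all 17 alternative analyses. Between UVA and CT and UVA it differed by 0.01 (-0.08 to 0.10).

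ATP6V1B1 (chr2:70935868-70965431), the B subunit isoform best known from kidney and inner ear, had 1.63, 0.847 and 1.73 CPM in UVA and CT, 3.94, 1.70 and 4.14 CPM in UVA and 4.42, 8.87 and 13.5 CPM in control. The control libraries spread widely, replicate 1 being close to the highest UVA library, yet neither irradiated group overlapped control, and UVA and CT overlapped UVA only between its highest and the lowest UVA library. ATP6V1B1 fell in UVA and CT against control by -2.65 (-3.92 to -1.38, adjusted p = 0.00933), the largest log2 fold change among the 44 genes in any comparison, and passed under all 17 alternatives there. After UVA the estimate was -1.43 (-2.59 to -0.27, adjusted p = 0.0847), which missed the threshold, while it passed by DESeq2 (adjusted p = 0.0360), by limma-voom (0.0330), with the replicate number as a block (0.0448) and without control replicate 1 (0.00404). Between UVA and CT and UVA the interval was wide, -1.22 (-2.59 to 0.14), and it includes 0.

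Its paralog ATP6V1B2, the B isoform found in most tissues, had 134, 128 and 130.2 CPM in UVA and CT, 136, 136 and 139 CPM in UVA and 129, 138 and 128 CPM in control. These values overlapped control in both irradiated groups, with log2 fold changes of 0.07 (-0.03 to 0.16, adjusted p = 0.317) after UVA and 0.00 (-0.10 to 0.09, adjusted p = 0.953) in UVA and CT. Per kilobase of merged exons, ATP6V1B2 stood at 45.5 CPM in UVA and CT, 47.8 in UVA and 45.7 in control. On the same scale ATP6V1B1 stood at 0.723, 1.68 and 4.61. The B1 isoform thus made up 1.77, 0.969 and 1.93% of the summed B1 and B2 level per kilobase in the UVA and CT libraries, 4.11, 1.82 and 4.22% in the UVA libraries and 4.85, 8.72 and 13.6% in the control libraries. B2 was the main B isoform in every library.

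The C subunit clamps V1 onto V0, and its paralogs did not pass the test in any comparison. ATP6V1C1 had 61.3, 54.9 and 67.3 CPM in UVA and CT, 57.7, 56.9 and 52 CPM in UVA and 60.6, 57 and 58.2 CPM in control, with the groups overlapping throughout. ATP6V1C2 had 0.481, 1.20 and 0.933 CPM in UVA and CT, 1.17, 1.70 and 0.869 CPM in UVA and 0.926, 0.919 and 1.12 CPM in control. Its log2 fold changes were 0.33 (-0.47 to 1.13) after UVA and -0.18 (-1.0 to 0.64) in UVA and CT against control. With 174 counts over all 9 libraries it was the most thinly counted of the V1 genes described, and 31.1% of its exon bases lie opposite exons of PDIA6, an abundant gene with 41600 counts. The strand setting of the counting is not given in the sources used here, so reads of PDIA6 may be among those of ATP6V1C2. For the isoforms of subunit C, ATP6V1C2 made up 1.32, 3.57 and 2.30% of the summed level per kilobase in UVA and CT, 3.33, 4.86 and 2.77% in UVA and 2.54, 2.67 and 3.16% in control.

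ATP6V1E1, a peripheral stalk subunit, fell after UVA by -0.16 (-0.26 to -0.06, adjusted p = 0.0182) and differed in UVA and CT from control by -0.12 (-0.22 to -0.02, adjusted p = 0.0590). Its call after UVA was lost without control replicate 2 (adjusted p = 0.0663), control replicate 3 (0.101), UVA replicate 1 (0.0513) or UVA replicate 2 (0.0733). The remaining V1 genes encode the central rotor subunit D (ATP6V1D), the rotor subunit F (ATP6V1F), the stalk subunit G (ATP6V1G1) and the regulatory subunit H (ATP6V1H). They passed in no comparison, with log2 fold changes from -0.16 to 0.04 after UVA and, in UVA and CT against control, from -0.09 to 0.10. ATP6V1G1 was the most abundant pump gene per kilobase in all 3 groups, at 142 CPM in UVA and CT, 136 in UVA and 133 in control, and ATP6V1C2 the least. ATP6V1D shares 13.7% of its exon bases with EIF2S1 on the opposite strand.

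**Figure D3:**
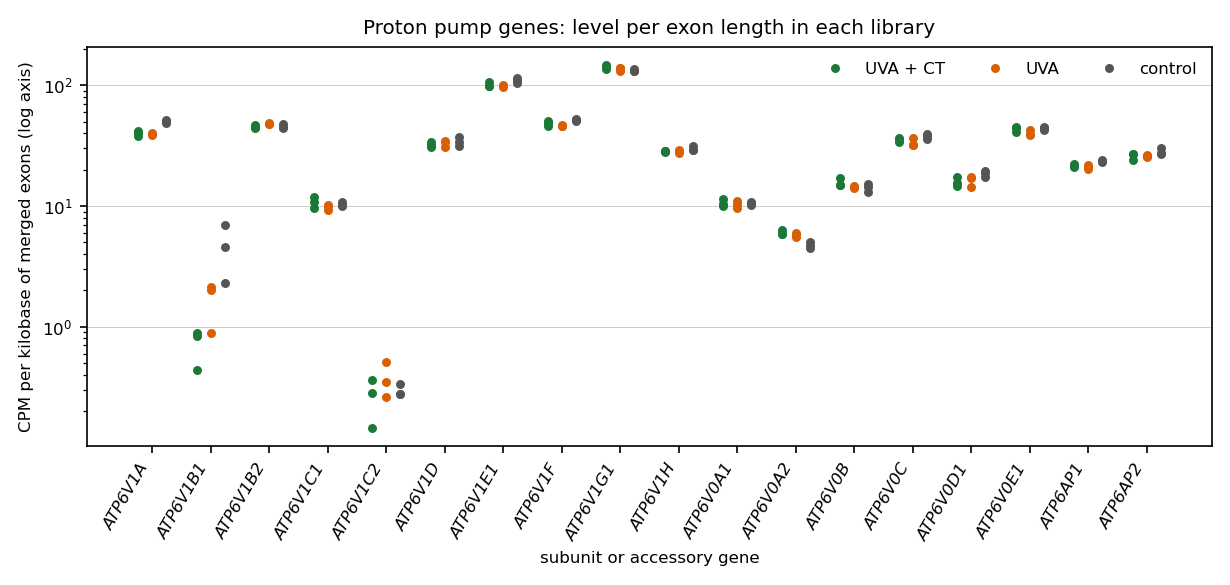
Level of the 18 pump and accessory genes per kilobase of merged exons (vertical log axis, CPM per kilobase) in each library, with UVA + CT, UVA and control points side by side for each gene (horizontal axis). ATP6V1C2 is lowest in all groups, and ATP6V1B1 shows the widest gap between groups, at means of 0.723, 1.68 and 4.61.

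In the V0 sector, ATP6V0A2 (chr12:123712318-123761755), an isoform of the large a subunit placed mostly in endosomes and the Golgi apparatus, had 42.8, 42.8 and 46.8 CPM in UVA and CT, 42.2, 43.9 and 40.5 CPM in UVA and 37, 34.6 and 33.1 CPM in control. All 6 irradiated libraries were above the highest control library. ATP6V0A2 rose after UVA by 0.27 (0.13 to 0.41, adjusted p = 0.00635) and in UVA and CT against control by 0.34 (0.20 to 0.48, adjusted p = 0.000665), under all 17 alternatives in each. The CT-treated cells differed from UVA by 0.07 (-0.07 to 0.20). Its paralog ATP6V0A1 differed from control by -0.03 (-0.17 to 0.11, adjusted p = 0.822) after UVA and 0.01 (-0.13 to 0.15, adjusted p = 0.936) in UVA and CT.

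ATP6V0D1, the d subunit that couples the V0 ring to the rotor, had 27, 28.7 and 31.7 CPM in UVA and CT, 31.6, 26.6 and 32 CPM in UVA and 36.1, 31.8 and 34.7 CPM in control. UVA libraries overlapped control, whereas the UVA and CT libraries were all below the lowest control library by a narrow margin. It fell in UVA and CT against control by -0.23 (-0.40 to -0.06, adjusted p = 0.0403). The call was lost by DESeq2 (adjusted p = 0.0543), by limma-voom (0.0518), and without control replicate 1 (0.125), control replicate 3 (0.0911), UVA and CT replicate 1 (0.149) or UVA and CT replicate 2 (0.106). Of the other V0 members, ATP6V0B and ATP6V0C belong to the proton-binding ring and ATP6V0E1 is a small membrane subunit. They did not pass in any comparison, with log2 fold changes of 0.01, -0.18 and -0.13 after UVA and 0.14, -0.10 and -0.02 in UVA and CT against control, in that order of genes. ATP6V0C missed narrowly after UVA (adjusted p = 0.0550), and 57.5% of its exon bases are shared with an overlapping annotated gene on the same strand.

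ATP6AP1, an accessory protein of pump assembly, had 70.7, 68.7 and 67 CPM in UVA and CT, 66.2, 63.8 and 68.8 CPM in UVA and 73.6, 74.4 and 76.7 CPM in control. The UVA libraries and the UVA and CT libraries were all below the control libraries. ATP6AP1 fell after UVA by -0.18 (-0.28 to -0.07, adjusted p = 0.0189), a call lost without UVA replicate 2 (adjusted p = 0.0889), control replicate 2 (0.0526) or control replicate 3 (0.0745), and differed in UVA and CT from control by -0.12 (-0.23 to -0.02, adjusted p = 0.0778). ATP6AP2, the prorenin receptor, differed from control by -0.11 (-0.24 to 0.01, adjusted p = 0.207) after UVA and -0.12 (-0.24 to 0.01, adjusted p = 0.157) in UVA and CT. Over the 18 pump and accessory genes, 3 fell (16.7%) and 1 rose (5.56%) in each comparison with control, against 10.6% lower and 10.5% higher of all tested genes after UVA and 14.2% and 15.7% in UVA and CT. There were 0 calls by edgeR between UVA and CT and UVA, against 0.944% higher and 0.614% lower of all tested genes. Neither DESeq2 nor limma-voom called any of the 18. At an unadjusted p under 0.05, 1 of the 18 was higher and 0 were lower there, against 1122 and 878 of all 15154 tested genes.

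At the lysosomal membrane, LAMP2, a glycoprotein of the limiting membrane that also serves chaperone-mediated autophagy, had 264, 247 and 247 CPM in UVA and CT, 268, 266 and 256 CPM in UVA and 289.8, 298 and 309 CPM in control. The irradiated libraries were all below the control libraries. LAMP2 fell after UVA by -0.18 (-0.27 to -0.10, adjusted p = 0.00368) and in UVA and CT by -0.24 (-0.33 to -0.16, adjusted p = 0.000194), and both calls held under all 17 alternatives. LAMP1, its close relative and the most abundant of the 6 membrane genes per kilobase, fell by -0.14 (-0.22 to -0.07, adjusted p = 0.00465) in UVA and CT under all 17 alternatives. After UVA the fall of LAMP1 was -0.10 (-0.18 to -0.03, adjusted p = 0.0477) and was lost under 9 of the 17, among them without UVA replicate 1 (adjusted p = 0.0987), UVA replicate 2 (0.0824), UVA replicate 3 (0.147), control replicate 2 (0.125), control replicate 3 (0.152) or UVA and CT replicate 2 (0.0726).

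CD68 (chr17:7579467-7582113), a heavily glycosylated lysosomal protein best known from macrophages, had 14.1, 15.4 and 14.6 CPM in UVA and CT, 13.4, 17.9 and 17.1 CPM in UVA and 8.44, 10.4 and 9.23 CPM in control. Every irradiated library was above the control libraries, and the irradiated groups overlapped. CD68 rose after UVA by 0.79 (0.54 to 1.04, adjusted p = 0.000115) and in UVA and CT against control by 0.65 (0.41 to 0.90, adjusted p = 0.000329), under all 17 alternatives in each, with -0.13 (-0.37 to 0.10) between UVA and CT and UVA. The 12 macrophage and leukocyte markers summed to 0.865 to 1.74 CPM in UVA and CT, 0.609 to 1.84 CPM in UVA and 0.433 to 1.49 CPM in control, far under the level of CD68, with MRC1 and AIF1 at 0 throughout. A read-through transcript annotated on the same strand covers 95.3% of the exon bases of CD68, so reads of the pair cannot be told apart here.

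CD63, a tetraspanin of late endosomes, and NPC1, the cholesterol exporter of the lysosomal membrane, differed from control by -0.03 (-0.12 to 0.07) and 0.05 (-0.06 to 0.15) after UVA. In UVA and CT the values were -0.03 (-0.13 to 0.06) for CD63 and 0.06 (-0.05 to 0.16) for NPC1. MCOLN1, the lysosomal calcium channel, was counted at low depth, and its differences of -0.25 (-0.69 to 0.20) and -0.19 (-0.63 to 0.24) leave a moderate change in either direction within the interval.

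Cathepsins are the proteases of the lysosome, and 3 of the 8 (37.5%) fell and 0 rose after UVA by edgeR, against 10.6% and 10.5% of all tested genes. In UVA and CT against control 4 (50%) fell and 1 (12.5%) rose, against 14.2% and 15.7%. CTSD (chr11:1752752-1764573), the main aspartic protease, had 607, 583 and 555 CPM in UVA and CT, 636, 536 and 605 CPM in UVA and 786, 882 and 998 CPM in control. The highest irradiated library was well below the lowest control library, although the control libraries were also spread widely. CTSD fell after UVA by -0.58 (-0.81 to -0.36, adjusted p = 0.00508) and in UVA and CT by -0.61 (-0.84 to -0.38, adjusted p = 0.00265), and differed between UVA and CT and UVA by -0.03 (-0.25 to 0.20). It was the most abundant of the 44 genes per kilobase in every group, at 274 CPM in UVA and CT, 279 in UVA and 418 in control. An annotated protein-coding read-through gene on the same strand shares 54.9% of its exon bases.

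CTSH, an aminopeptidase of the papain family, had 194, 188 and 177 CPM in UVA and CT, 212, 196 and 200.0 CPM in UVA and 237, 257 and 291 CPM in control. The 3 groups did not overlap, with UVA and CT lowest and control highest. CTSH fell after UVA by -0.37 (-0.51 to -0.23, adjusted p = 0.00114) and in UVA and CT by -0.49 (-0.63 to -0.35, adjusted p = 7.64e-05), whereas UVA and CT against UVA gave -0.12 (-0.26 to 0.02, adjusted p = 0.446). CTSB, a cysteine protease of broad specificity, had 313, 316 and 311 CPM in UVA and CT, 328, 295 and 325 CPM in UVA and 364, 377 and 395 CPM in control. Irradiated libraries lay below all control libraries, and the irradiated groups overlapped. CTSB fell by -0.26 (-0.35 to -0.17, adjusted p = 0.000320) after UVA and by -0.27 (-0.36 to -0.18, adjusted p = 0.000107) in UVA and CT. The falls of CTSD, CTSH and CTSB passed under all 17 alternatives in both comparisons with control.

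CTSA, the serine carboxypeptidase that also protects other lysosomal glycosidases, had 112, 108 and 107 CPM in UVA and CT, 117, 107 and 118 CPM in UVA and 119, 127 and 129 CPM in control. UVA and CT libraries were all below control, and UVA libraries were below control by a narrow margin. It fell in UVA and CT by -0.20 (-0.30 to -0.10, adjusted p = 0.00400), under all 17 alternatives, and after UVA the estimate was -0.13 (-0.24 to -0.03, adjusted p = 0.0565), past the threshold only when genes were required to have 10 counts in every library or without control replicate 1. Parts of its exons lie opposite PLTP and NEURL2, which cover 8.55% and 10.4% of its exon bases.

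CTSL, a cysteine endopeptidase, moved the other way. It had 73, 72.9 and 83.8 CPM in UVA and CT, 66.9, 70 and 69.8 CPM in UVA and 64.5, 65.6 and 63.7 CPM in control. The UVA and CT libraries were above both other groups, without overlap. CTSL rose in UVA and CT against control by 0.25 (0.13 to 0.37, adjusted p = 0.00270), under all 17 alternatives, with 0.09 (-0.03 to 0.21, adjusted p = 0.278) after UVA and 0.15 (0.03 to 0.27, adjusted p = 0.227) between UVA and CT and UVA, which did not pass. CTSV, a close paralog of CTSL with high expression in epithelia of the thymus and skin, had 42.5, 48.7 and 46.4 CPM in UVA and CT, 43.4, 44.4 and 42.9 CPM in UVA and 40.7, 42.9 and 45.1 CPM in control. Its groups overlapped, and it passed in no comparison, with 0.10 (-0.04 to 0.23, adjusted p = 0.279) in UVA and CT against control. CTSC, the activator of granule serine proteases, and CTSZ, a carboxypeptidase, had log2 fold changes of -0.05 and -0.01 after UVA and of -0.03 and -0.08 in UVA and CT, none past the test.

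**Figure D4:**
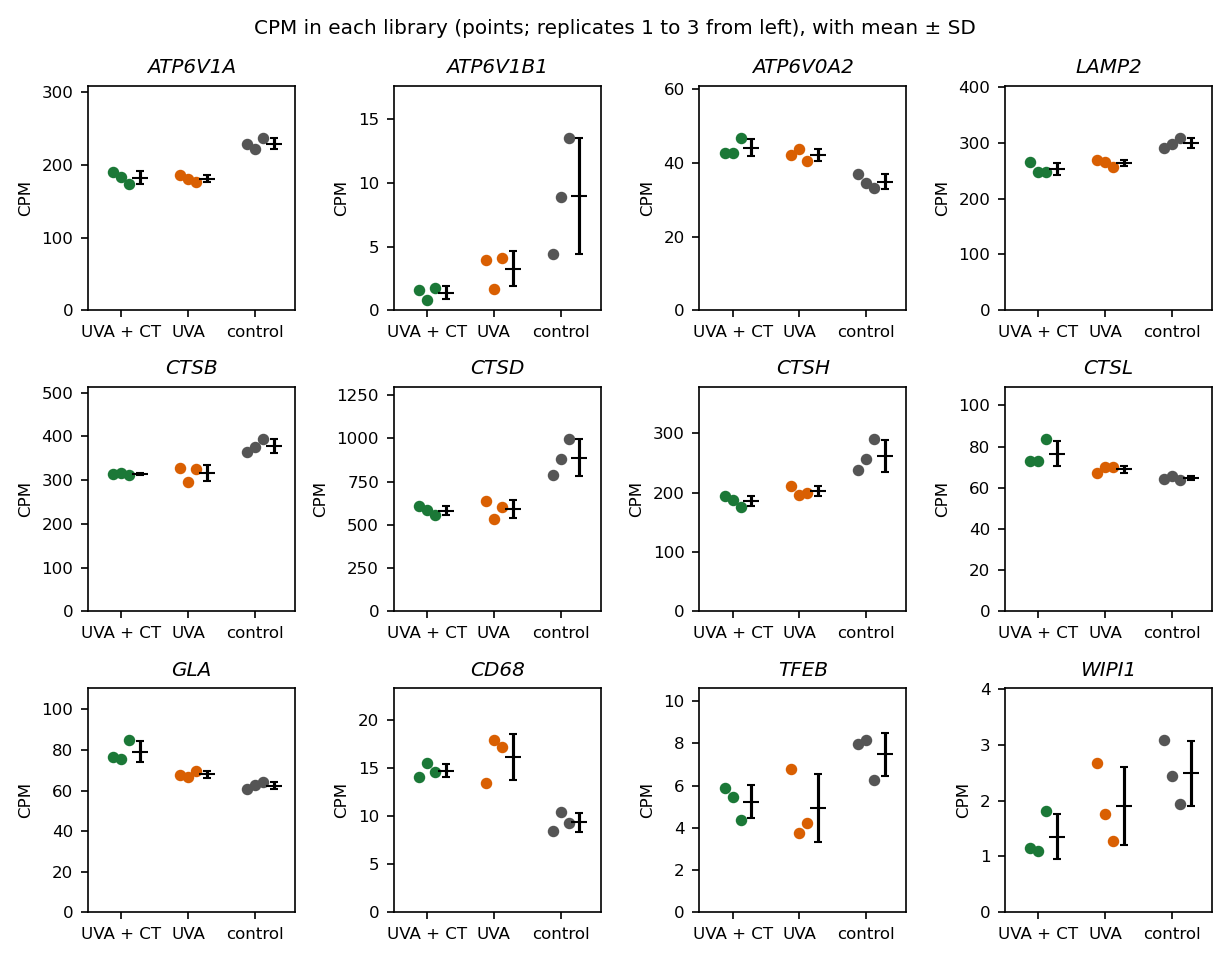
CPM (vertical axes, each from 0) of 12 genes in every library, with UVA + CT, UVA and control from left to right and the mean ± SD of the 3 libraries as a bar beside the points. CTSD lies at 555 to 607 CPM in UVA and CT, 536 to 636 CPM in UVA and 786 to 998 CPM in control, and GLA is highest in UVA and CT.

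GLA (chrX:101397803-101408012), alpha-galactosidase A, which removes terminal galactose from glycolipids, was the only gene of the 44 past the test between CT-treated and untreated irradiated cells. It had 76.5, 75.7 and 85 CPM in UVA and CT, 67.7, 66.5 and 69.6 CPM in UVA and 60.7, 62.7 and 64 CPM in control. The 3 groups did not overlap, with UVA and CT highest and control lowest. GLA rose in UVA and CT against UVA by 0.22 (0.10 to 0.33, adjusted p = 0.0470) and against control by 0.34 (0.23 to 0.46, adjusted p = 0.000111), with 0.12 (0.01 to 0.24, adjusted p = 0.130) after UVA alone. The comparisons share libraries. The call against control held under all 17 alternatives, whereas the call against UVA was lost under 9 of them: limma-voom (adjusted p = 0.0684), library size scaling (0.0632), and without UVA replicate 1 (0.160), UVA replicate 2 (0.179), UVA replicate 3 (0.111), UVA and CT replicate 2 (0.0727), UVA and CT replicate 3 (0.272) or control replicate 2 (0.0763), besides a fit with the replicate number as a term. The estimate against UVA stayed between 0.16 and 0.24 in all 17.

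HEXA, the alpha chain of hexosaminidase, fell after UVA by -0.14 (-0.25 to -0.04, adjusted p = 0.0423) and in UVA and CT by -0.16 (-0.26 to -0.06, adjusted p = 0.0161). The call after UVA was lost under 10 of 17 alternatives, including without control replicate 1 (adjusted p = 0.0856), control replicate 2 (0.0929), control replicate 3 (0.0967), UVA replicate 2 (0.0919), UVA replicate 3 (0.190) or UVA and CT replicate 2 (0.0594), and that in UVA and CT without UVA and CT replicate 2 (0.0664). GUSB, beta-glucuronidase, differed by -0.08 (-0.24 to 0.08) after UVA and -0.04 (-0.19 to 0.12) in UVA and CT.

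GRN, the precursor of granulins and a chaperone of lysosomal enzymes, had 100.2, 113 and 99.1 CPM in UVA and CT, 114, 99.8 and 107 CPM in UVA and 115, 122 and 128 CPM in control. All irradiated libraries were below the lowest control library. GRN fell by -0.22 (-0.35 to -0.10, adjusted p = 0.00739) in UVA and CT, under all 17 alternatives, and by -0.18 (-0.31 to -0.06, adjusted p = 0.0344) after UVA. The call after UVA was lost by limma-voom (adjusted p = 0.0525), with the replicate number as a block (0.0785) and without UVA replicate 2 (0.173), UVA replicate 3 (0.104), control replicate 2 (0.101) or control replicate 3 (0.147). NPC2, the soluble partner of NPC1 in cholesterol export, rose in UVA and CT against control by 0.12 (0.04 to 0.19, adjusted p = 0.0214), lost without the filter on low counts (adjusted p = 0.0590) and without control replicate 2 (0.0846), control replicate 3 (0.0557) or UVA and CT replicate 2 (0.0718), and differed after UVA by 0.10 (0.02 to 0.18, adjusted p = 0.0585). PSAP, the precursor of saposins and next to CTSD in abundance per kilobase, differed from control by 0.02 (-0.08 to 0.11) after UVA and -0.04 (-0.13 to 0.05) in UVA and CT.

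TFEB (chr6:41683978-41736259) had 5.86, 5.48 and 4.39 CPM in UVA and CT, 6.78, 3.77 and 4.24 CPM in UVA and 7.97, 8.17 and 6.29 CPM in control. All UVA and CT libraries were below control, whereas UVA replicate 1 lay within the control range. TFEB fell after UVA by -0.60 (-1.01 to -0.19, adjusted p = 0.0349) and in UVA and CT by -0.51 (-0.92 to -0.11, adjusted p = 0.0499), both close to the threshold. The call after UVA was lost without UVA replicate 2 (adjusted p = 0.165), UVA replicate 3 (0.154), control replicate 1 (0.0873), control replicate 2 (0.132) or UVA and CT replicate 2 (0.0527). The call in UVA and CT was lost by DESeq2 (0.0550), under library size scaling (0.0503) and without UVA and CT replicate 2 (0.0972), UVA and CT replicate 3 (0.193), control replicate 1 (0.120), control replicate 2 (0.167) or UVA replicate 3 (0.0589). TFE3, its paralog, had 22.7, 20.9 and 23.4 CPM in UVA and CT, 22.4, 22.2 and 21.2 CPM in UVA and 19.7, 21.4 and 21 CPM in control. The groups overlapped in every comparison, and its log2 fold changes were 0.08 (-0.09 to 0.25, adjusted p = 0.517) after UVA and 0.11 (-0.05 to 0.28, adjusted p = 0.312) in UVA and CT. Per kilobase, TFE3 stood at 6.55 CPM in UVA and CT, 6.42 in UVA and 6.06 in control, above TFEB at 1.17, 1.10 and 1.67.

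Of the 4 autophagy genes, WIPI1, a phosphoinositide-binding protein of the forming autophagosome, had 1.15, 1.10 and 1.82 CPM in UVA and CT, 2.67, 1.77 and 1.28 CPM in UVA and 3.09, 2.43 and 1.94 CPM in control. The UVA libraries overlapped both other groups, and the UVA and CT libraries lay just below the lowest control library. WIPI1 fell in UVA and CT by -0.87 (-1.51 to -0.24, adjusted p = 0.0350), a call lost with the replicate number as a block (adjusted p = 0.0562) and without UVA and CT replicate 1 (0.0995), UVA and CT replicate 2 (0.127), control replicate 1 (0.140) or control replicate 2 (0.0735), and differed after UVA by -0.39 (-1.01 to 0.23, adjusted p = 0.389). It had 325 counts over all libraries, and 28.5% of its exon bases lie opposite exons of ARSG, which had 195. MAP1LC3B, the ubiquitin-like protein that marks autophagosomes, had 95.5, 96 and 95.2 CPM in UVA and CT, 91.1, 93.2 and 101 CPM in UVA and 93.5, 91.7 and 91.8 CPM in control. No comparison passed, with 0.04 (-0.06 to 0.15, adjusted p = 0.566) after UVA and 0.05 (-0.05 to 0.15, adjusted p = 0.481) in UVA and CT, and reads may be shared with its near-identical copy MAP1LC3B2. GABARAPL1, of the same protein family and with the near-identical copy GABARAPL3, differed by 0.20 (0.04 to 0.36, adjusted p = 0.229) between UVA and CT and UVA, and ULK1, the kinase that starts autophagy, by -0.21 (-0.48 to 0.05, adjusted p = 0.497).

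Other genes of the same pathways were counted from lists that do not hold the 44 genes. Of 41 other lysosomal hydrolases tested, 11 fell (26.8%) and 1 rose (2.44%) after UVA, against 10.6% and 10.5% of all tested genes, and 15 fell (36.6%) and 2 rose (4.88%) in UVA and CT against control, against 14.2% and 15.7%. The list's median log2 fold change was -0.15 in UVA and -0.17 in UVA and CT, against 0.00 over all genes in each. LIPA, the acid lipase, had 493, 489 and 460.2 CPM in UVA and CT, 525, 512 and 519 CPM in UVA and 595, 597 and 611 CPM in control, without overlap between irradiated and control libraries, and fell by -0.21 (-0.29 to -0.14, adjusted p = 0.000441) after UVA and -0.32 (-0.40 to -0.24, adjusted p = 3.92e-06) in UVA and CT. SMPD1, acid sphingomyelinase, fell by -0.84 (adjusted p = 0.00135) in UVA and by -0.69 (0.00333) in UVA and CT, and IDS, iduronate sulfatase, by -0.25 (0.000841) and -0.28 (0.000184). The count of 11 ranged from 6 to 13 over 17 alternatives, and that of 15 from 10 to 17.

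Of 15 other pump and assembly genes, 2 fell (13.3%) and 3 rose (20%) after UVA, against 10.6% and 10.5% of all tested genes, and 5 fell (33.3%) and 3 rose (20%) in UVA and CT, against 14.2% and 15.7%. DMXL1 and WDR7, which encode subunits of the complex that reassembles the pump, fell by -0.41 (adjusted p = 0.00254) and -0.35 (0.00375) after UVA and by -0.61 (5.86e-05) and -0.41 (0.000532) in UVA and CT. ATP6V1E2, a paralog of ATP6V1E1, rose by 0.52 (0.0182) and 0.57 (0.00651), the call after UVA being lost without control replicate 2, control replicate 3 or UVA replicate 1, with adjusted p up to 0.102. Over the 17 alternatives the count of 3 that rose after UVA ranged from 0 to 3, and that of 5 that fell in UVA and CT from 2 to 5.

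Of 27 other genes of the lysosomal membrane and its transport, 4 fell (14.8%) and 3 rose (11.1%) in each comparison with control, shares close to those of all tested genes, 10.6% and 10.5% after UVA and 14.2% and 15.7% in UVA and CT. The 4 that fell after UVA ranged from 2 to 4 over the 17 alternatives, and the 3 that rose in UVA and CT from 1 to 4. SLC29A3, a nucleoside transporter, fell by -0.66 (adjusted p = 0.000206) after UVA and -0.68 (6.83e-05) in UVA and CT, and TPCN1, a cation channel of endosomes and lysosomes, rose by 0.32 (0.00351) and 0.45 (7.83e-05). Of 12 genes that sort enzymes to the lysosome, 1 (8.33%) fell after UVA, SORT1, a sorting receptor, by -0.52 (0.000723). In UVA and CT 2 (16.7%) fell, SORT1 by -0.54 (0.000270) and GNPTAB, the enzyme that builds the mannose 6-phosphate tag, by -0.27 (0.000513).

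Of 53 other autophagy genes, 8 fell (15.1%) and 5 rose (9.43%) after UVA, and 10 fell (18.9%) and 8 rose (15.1%) in UVA and CT against control. These shares stand against 10.6% and 10.5% of all tested genes after UVA and 14.2% and 15.7% in UVA and CT. The 8 ranged from 3 to 10 over the 17 alternatives, the 5 from 1 to 6, the 10 from 8 to 12 and the 8 that rose in UVA and CT from 5 to 9. SQSTM1, the cargo receptor p62, had 515, 540.1 and 604 CPM in UVA and CT, 529, 516 and 560.0 CPM in UVA and 401, 386 and 407 CPM in control. Its irradiated libraries were all above control, and it rose by 0.43 (0.32 to 0.53, adjusted p = 2.51e-05) after UVA and 0.47 (0.37 to 0.58, adjusted p = 4.27e-06) in UVA and CT. PINK1, the kinase that marks damaged mitochondria, fell by -0.60 (adjusted p = 0.000246) and -0.52 (0.000325), and GABARAP, a relative of MAP1LC3B, by -0.24 (0.00270) and -0.29 (0.000337). TP53INP1 fell by -0.92 (0.0157) and -1.63 (0.000270), the call after UVA being lost without control replicate 3, UVA replicate 1 or UVA replicate 2. Between UVA and CT and UVA, TP53INP1 differed by -0.70 (0.263). BNIP3L differed after UVA by 0.17 (0.0527) and rose in UVA and CT against control by 0.35 (0.000203).

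BNIP3, a receptor for mitophagy, was the only gene of these other lists past the test between UVA and CT and UVA. Over all tested genes 0.944% rose and 0.614% fell there. It had 24.4, 29.1 and 29.6 CPM in UVA and CT, 12.1, 12 and 13.3 CPM in UVA and 9.93, 10.3 and 9.70 CPM in control. The UVA and CT libraries were well above every other library. BNIP3 rose by 1.15 (0.95 to 1.35, adjusted p = 1.91e-07) against UVA and by 1.47 (1.27 to 1.68, adjusted p = 3.13e-09) against control, and its rise of 0.32 (0.10 to 0.54, adjusted p = 0.0347) after UVA was lost by DESeq2, limma-voom and without any of 5 single libraries, control replicates 1, 2 and 3 and UVA replicates 2 and 3, with adjusted p up to 0.144. Of 23 genes of TFEB control and mTORC1 at the lysosome, 1 (4.35%) fell after UVA, the Rag GTPase RRAGA by -0.26 (adjusted p = 0.0242), a call lost without control replicate 1, UVA replicate 1 or UVA replicate 2, with adjusted p up to 0.110. In UVA and CT 1 (4.35%) fell, RRAGC by -0.24 (0.00293), and 1 (4.35%) rose, RHEB by 0.16 (0.00826). Over all tested genes 10.6% fell and 10.5% rose after UVA, and 14.2% fell and 15.7% rose in UVA and CT against control. In the hydrolase, pump, membrane, sorting and mTORC1 lists 0 genes passed in either direction between UVA and CT and UVA by edgeR and under all 17 alternatives, DESeq2 and limma-voom included. With 0.944% higher and 0.614% lower of all tested genes by edgeR, 0 calls in lists of this size are near the general share. At an unadjusted p under 0.05 the hydrolases held 0 higher and 3 lower, the pump genes 0 and 1, the membrane genes 0 and 0, the sorting genes 0 and 1 and the mTORC1 genes 1 and 2. The other autophagy genes held 7 higher and 4 lower at that level, and all 15154 tested genes held 1122 and 878.

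**Figure D5:**
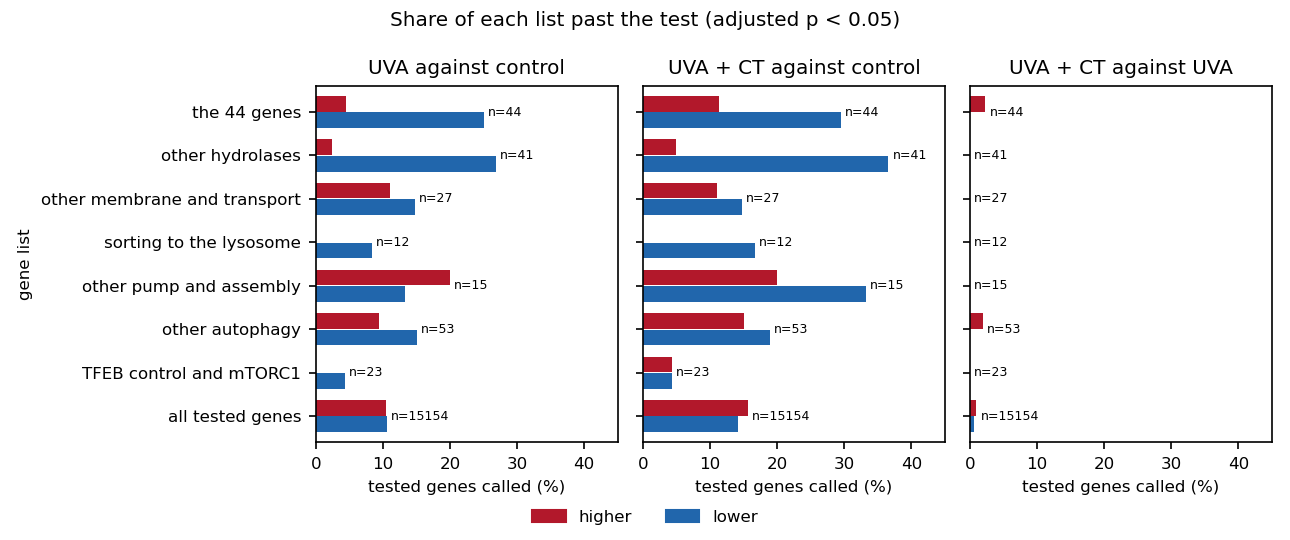
Percentage of tested genes past an adjusted p of 0.05 (horizontal axis) as higher or lower for the 44 genes, 6 other lists and all tested genes (vertical axis), in the 3 comparisons, with the number tested beside each bar. The lower bars of the 44 genes, 25% and 29.5%, and of the other hydrolases, 26.8% and 36.6%, stand against 10.6% and 14.2% of all genes in UVA and in UVA and CT.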

How the data were processed

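Total RNA was extracted with a TRIzol-type reagent, and libraries of bead-captured polyadenylated RNA were run on an Illumina NovaSeq. In the submitters' processing notes, bcl2fastq, fastp (version 0.23.2) and the build GRCh38 are listed. No name of an aligner, counter, annotation or strand setting was found in the sources used here. The authors deposited whole-number counts per gene, not normalized, and every column was assigned to its group by its label.

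Genes were kept by filterByExpr, counts were scaled by TMM, and all 9 libraries were fitted together with edgeR 4.0.16 in R 4.3.3 (glmQLFit, robust, then the quasi-likelihood F test). Standard errors were the absolute log2 fold change over the square root of F. The procedure was tested on simulated data. Pairs of replicates gave a chi-square of 2.76 to 6.98 per degree of freedom, above counting error. Exon lengths, positions and overlaps came from GENCODE 29 basic (GRCh38). The alternatives were DESeq2 1.42.0, limma-voom (limma 3.58.1), other scalings and filters, the compared groups alone, a replicate block and each library left out, 17 in all at the same adjusted p. The study's own thresholds of p and fold change were applied apart from these.

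The 44 genes and the other lists were chosen with earlier results of these data known. Values in all libraries are given for the 16 genes with the largest log2 fold changes among those past the test and for paralogs or regulators of them. Of each other list at most the 4 genes with the smallest adjusted p in a comparison were eligible to be named. Of the melanocyte markers 3 of 7 were tested and summed to 4.63 to 6.44 CPM in UVA and CT, 5.17 to 5.88 CPM in UVA and 5.46 to 6.17 CPM in control.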

Additional observations from a re-analysis of the deposited data

How the results depend on the processing

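No called fold change of the 44 genes changed sign under any of the 17 alternative analyses, which keep the adjusted p threshold. Of 13 calls after UVA, 7 held under all 17, of 18 calls in UVA and CT against control 13 did, and the single call against UVA did not. With each library left out, the number that fell after UVA was 5 to 11 and that rose 2 to 3, the number in UVA and CT against control 9 to 13 and 4 to 5, and against UVA 0 to 1 rose. The shares of all tested genes under the same settings are not given beside these ranges or those of the other lists. Whether a range is particular to its genes can therefore not be read from it. The rise of GLA against UVA was also lost by limma-voom, library size scaling and the replicate block, each giving 0. At the study's thresholds (fold change over 2 with an unadjusted p under 0.05), 0 of the 44 rose and 1, ATP6V1B1, fell after UVA, 0 rose against UVA, and 0 rose and 1, again ATP6V1B1, fell in UVA and CT against control. These thresholds called 148 higher and 186 lower genes of the whole table after UVA, 47 and 64 against UVA and 185 and 275 in UVA and CT against control, compared with 1592 and 1610, 143 and 93, and 2372 and 2145 by adjusted p. The p used here was edgeR's on the filtered genes, whereas the study's sequencing methods name no test. The study reported many more genes in each comparison, so these counts do not reproduce its own.

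Against UVA the whole table gave 329 higher and 232 lower genes without the filter, 140 lower with the compared groups alone, and 117 and 116 under library size scaling. Same-numbered libraries did not deviate together, with residual correlations of -0.05 to 0.03, and are not treated as pairs. With the replicate number as a block, 9 of the 44 genes fell after UVA, 57 genes of the whole table were lower against UVA, and ATP6V1B1 passed after UVA (adjusted p = 0.0448). ATP6V1B1, ATP6V1C2, MCOLN1 and WIPI1, at a few CPM, are limited by depth, as their intervals show. Alternatives for the other lists were added after the data were seen.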
